A study of Mus musculus with 2 samples.

Results

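The miR-130 and miR-301 family of the mouse comprises the genes Mir301 (the source of miR-301a), Mir130a, Mir130b and Mir301b. These 4 genes, of 2202 microRNA genes in the count files, were picked by name, and the family was chosen because the counts of Mir301 differed greatly between the libraries. The difference between the libraries is therefore given as a description, with no test. MicroRNA-seq was done on total RNA from tissue labelled as a layer of hippocampus, taken at 36 days of age from B6CASTF1/J males, an F1 strain of a C57BL/6J and a CAST/EiJ parent. There is 1 group, with no treatment and no second genotype, made up of 2 libraries labelled biological replicates 2 and 1. They have separate biosample labels under a shared donor label, and no label states whether the tissues came from separate animals, so the spread between them may be technical in part.

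MicroRNAs of a family share a seed, the stretch of bases 2 to 8 through which the microRNA, held in an Argonaute protein, pairs with messenger RNAs and lowers their output. miR-130 is known for repressing Pparg in fat cell formation, and miR-130a for acting in endothelial cells. The fold of each hairpin precursor brings a 5p arm against a 3p arm, and the family seed lies in the 3p arm.

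The mature 3p sequences (RefSeq, GRCm38.p6, 5′ to 3′) are shown first because the shared seed, in capitals, is what defines the family. RefSeq gave 3p entries for Mir130a, Mir130b and Mir301, and 5p entries for all 4 genes.
miR-130a-3p: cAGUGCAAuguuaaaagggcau
miR-130b-3p: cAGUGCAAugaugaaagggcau
miR-301a-3p: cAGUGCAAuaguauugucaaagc
Counted from the 5′ end, miR-130a-3p and miR-130b-3p differed at 2 of 22 positions (U11A and A13G, with the miR-130a base first). miR-130a-3p and miR-301a-3p were identical over the first 9 bases and differed at 10 of the 22 compared, starting with G10A. The family thus splits by its 3′ portion into a miR-130 and a miR-301 type with 1 seed.

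The 5p arms are shown because they carry other seeds, marked in capitals as bases 2 to 8.
miR-301a-5p: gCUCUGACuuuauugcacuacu
miR-301b-5p: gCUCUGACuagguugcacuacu
miR-130a-5p: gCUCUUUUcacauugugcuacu
miR-130b-5p: aCUCUUUCccuguugcacuacu
The 2 miR-301 arms shared 1 seed and differed at 3 of 22 positions (U10A, U11G and A12G, with the miR-301a base first). Among 1738 mature sequences in the table, no other had that seed. The 5p seeds of miR-130a and miR-130b differed from it and from each other. The 7 bases that pair with the family seed, UUGCACU, stood in the 5p arms of miR-301a, miR-301b and miR-130b and not in that of miR-130a. Counts are per gene, so the share of each arm in them could not be measured.

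The hairpins below, with the seed of the 3p arm in capitals, are the stretches over which reads were counted.
Mir301: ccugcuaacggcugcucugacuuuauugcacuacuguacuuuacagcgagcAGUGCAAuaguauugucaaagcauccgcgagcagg
Mir301b: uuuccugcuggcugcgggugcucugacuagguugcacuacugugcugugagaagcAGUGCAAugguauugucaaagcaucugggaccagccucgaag
Mir130a: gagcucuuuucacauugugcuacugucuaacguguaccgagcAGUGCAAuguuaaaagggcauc
Mir130b: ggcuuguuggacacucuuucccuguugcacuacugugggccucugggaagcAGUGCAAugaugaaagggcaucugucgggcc
The seed occurred 1 time in each hairpin. Predicted folding energies were -39.1 kcal/mol for Mir301b, -37 kcal/mol for Mir301, -30.1 kcal/mol for Mir130b and -22.1 kcal/mol for Mir130a, whose hairpin, at 64 bases, is the shortest. Reads that match several places enter no gene's count, so shared stretches bear on the values. Mir301 and Mir301b shared 16 bases at most, Mir130a shared 17 with Mir6389, and Mir130b shared 16 with Mir6368. None of the 4 shared a stretch of 20 bases with any of 1004 other annotated hairpins, while the mature arms are 22 or 23 bases long. An exact full-length arm of a member is therefore not found in another of these hairpins, though copies elsewhere in the genome and CAST/EiJ variants were not examined.

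All hairpins but that of Mir130a lie in first introns of protein-coding genes on the same strand (mm10, GENCODE M21). Mir301 (ENSMUSG00000065589.1, chr11:87113004-87113089, plus strand) lies in intron 1 of Ska2, which encodes a subunit of the spindle and kinetochore complex, 2780 bases from the nearest exon. Mir301b (ENSMUSG00000076288.1, chr16:17124400-17124496, minus strand) and Mir130b (ENSMUSG00000065572.1, chr16:17124061-17124142, minus strand) lie 257 bases apart in intron 1 of 2610318N02Rik. Mir130a (ENSMUSG00000065484.1, chr2:84741115-84741178, minus strand) overlaps no other annotated gene and lies 991 bases from Gm19426, the nearest one. The host messenger RNAs were not measured, since the libraries hold small RNA, per the labels.

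**Figure D1:**
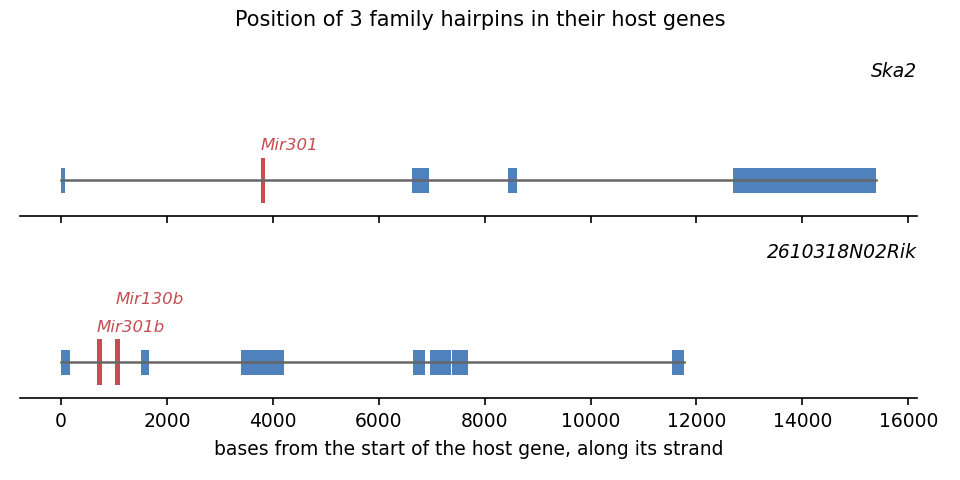
Position of Mir301 in Ska2 (top) and of Mir301b and Mir130b in 2610318N02Rik (bottom), in bases from the start of the host gene along its strand. Red bars are hairpins and blue boxes the exons of all annotated transcripts merged, and all 3 hairpins stand between the first exon and the next.

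Own-strand counts of microRNA genes totalled 5279877 in replicate 2 (34.6% of its reads) and 4404040 in replicate 1 (35.3%). Multimapping reads were 46.5% of all reads in replicate 2 and 40.3% in replicate 1. CPM below is the count per 1000000 of these own-strand counts. A count of 0 allows up to 0.568 CPM in replicate 2 and 0.681 CPM in replicate 1, taking 3 counts as the limit. Intervals are exact at 95% and, like this limit, cover counting error only, not the spread between libraries. The reads carry no molecular identifiers that would tell PCR copies apart, so the counting error may be larger than the intervals show. Of the neuronal markers of the tissue, the brain microRNA Mir128-1 stood at 11949 CPM in replicate 2 and 5440 CPM in replicate 1, but Mir124a-1, Mir124a-2 and Mir124a-3, genes with near-identical copies, had at most 11 counts each in either library.

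Mir130a was the most abundant gene of the family in both libraries and Mir301b the least, while Mir301 and Mir130b changed places between the libraries. The mature arms of the members in RefSeq are all 22 or 23 bases long, so these levels were compared without a further length term. Differences in capture between sequences were not measured and may enter these ratios.

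Mir130a had 10518 counts in replicate 2 and 7335 in replicate 1. These were 1992 CPM (interval 1954 to 2030) in replicate 2 and 1666 CPM (1628 to 1704) in replicate 1, or 1829 ± 231 CPM (SD, n = 2). Its rank by level was 67 of 2202 genes in replicate 2 and 73 in replicate 1. The gene was thus at a similar high level in both libraries.

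Mir301 had 4313 counts in replicate 2 and 94 in replicate 1. The levels were 817 CPM (interval 793 to 842) in replicate 2 and 21.3 CPM (17.2 to 26.1) in replicate 1. The mean was 419 ± 563 CPM (SD, n = 2), a value that describes neither library. By rank, Mir301 was gene 108 in replicate 2 and gene 264 in replicate 1.

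Mir130b had 248 counts in replicate 2 and 252 in replicate 1, at 47.0 CPM (interval 41.3 to 53.2) in replicate 2 and 57.2 CPM (50.4 to 64.7) in replicate 1, or 52.1 ± 7.25 CPM (SD, n = 2). These intervals overlap. Mir301b had 12 counts in replicate 2 and 0 in replicate 1, that is 2.27 CPM (1.17 to 3.97) in replicate 2 and at most 0.838 CPM by the exact interval in replicate 1. It was detected in replicate 2 alone, at a trace.

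**Figure D2:**
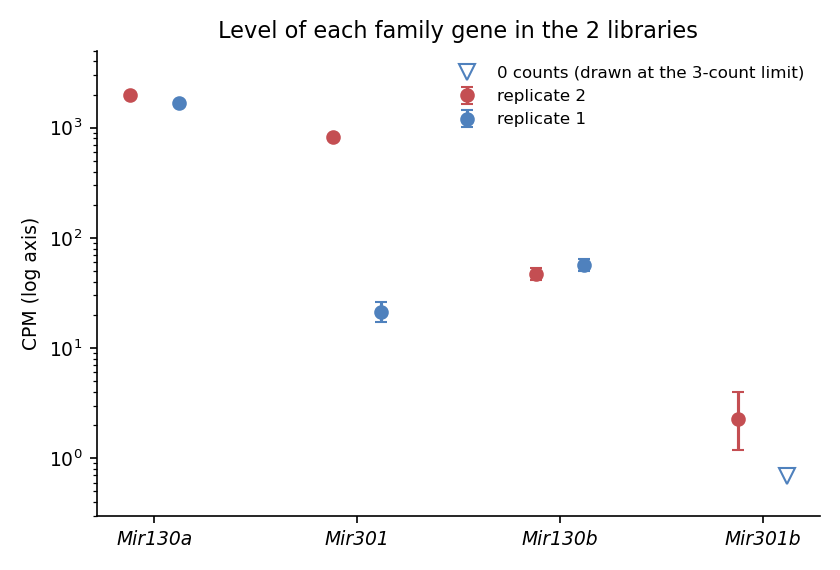
CPM on a log axis of the 4 family genes in replicate 2 (red) and replicate 1 (blue), with exact 95% intervals of the counts as bars. Mir130a stands at 1992 CPM in replicate 2 and 1666 CPM in replicate 1, Mir301 stands at 817 CPM in replicate 2 and 21.3 CPM in replicate 1, and the open triangle puts the 0 counts of Mir301b in replicate 1 at the limit of 3 counts.

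In the order of mean levels, Mir130a exceeded Mir301 in both libraries, with a count ratio of 2.44 in replicate 2 (interval 2.35 to 2.53) and of 78.0 in replicate 1 (63.7 to 96.7). Mir301 and Mir130b, the next neighbours, did not differ beyond the spread of the libraries: Mir301 had 17.4 times the counts of Mir130b in replicate 2 (15.3 to 19.8) and 0.373 times in replicate 1 (0.291 to 0.475). Mir130b exceeded Mir301b in both libraries. No order was tested across samples, since an exact sign-flip test of 2 libraries gives a two-sided p of 0.5 at the least.

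The neighbours Mir301b and Mir130b, hairpins of the same intron, had very unequal counts. Mir301b had 0.0484 times the counts of Mir130b in replicate 2 (interval 0.0247 to 0.0861). In replicate 1 its 0 counts against 252 allow a ratio of up to 0.0119 by the limit of 3 counts, and of up to 0.0147 by the exact interval. Over both libraries summed, the ratio was 12 to 500, or 0.024 (0.0123 to 0.0423). It rests on replicate 2 for all counts of Mir301b.

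The 4 genes together held 15091 counts in replicate 2 and 7681 in replicate 1, or 2858 CPM in replicate 2 and 1744 CPM in replicate 1 (2301 ± 788 CPM, SD, n = 2). This was 0.286% of the counts of replicate 2 and 0.174% of those of replicate 1. Within the family, Mir130a made up 69.7% of the counts in replicate 2 (interval 69.0 to 70.4) and 95.5% in replicate 1 (95.01 to 95.95). Mir301 made up 28.6% in replicate 2 (27.9 to 29.3) and 1.22% in replicate 1 (0.990 to 1.496). Mir130b made up 1.64% in replicate 2 and 3.28% in replicate 1, and Mir301b 0.0795% in replicate 2 and 0 in replicate 1. There, 0 of 7681 counts allows a share of up to 0.0391% by the limit of 3 counts and 0.0480% by the exact interval. These shares need no scaling between libraries. Nearly all reads of the family in replicate 1 thus came from 1 gene, and in replicate 2 from a pair, Mir130a and Mir301.

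**Figure D3:**
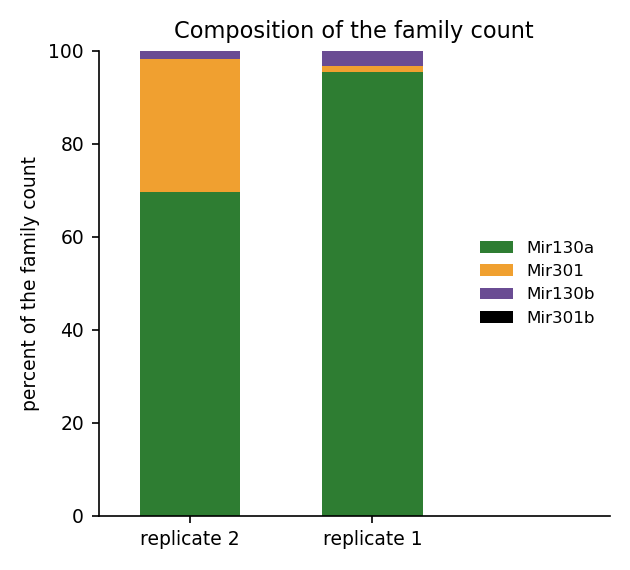
Share of the family count held by each gene, in percent, in replicate 2 (left) and replicate 1 (right). Mir301 takes 28.6% of the bar of replicate 2 and 1.22% of that of replicate 1, and Mir301b is too low to be seen.

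Replicate 2 was next set against replicate 1 on the scale of log2(CPM + 1) after TMM scaling, over the 504 genes with 10 or more counts in total. All 4 family genes met that minimum, Mir301b through replicate 2 alone. Mir301 had a log2 ratio of 5.18, and its scaled level was 37.8 times higher in replicate 2 (interval 30.8 to 46.9). This was the largest ratio of the 504 genes, which is how the family came to be picked, and Mir1247 followed at 4.73. Mir130a had a log2 ratio of 0.24, 1.18 times higher in replicate 2 (1.15 to 1.22), and Mir130b one of -0.30, or 0.811 times (0.678 to 0.970). Mir301b was at least 3.30-fold higher in replicate 2 against the limit of 3 counts in replicate 1, and the exact interval, which also holds the counting error of its 12 counts, starts at 2.29-fold. Its log2 ratio was 1.70 with 1 CPM added, and 0.54, within 2-fold, with 5 CPM added.

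By this measure 2 of the 4 genes, Mir301 and Mir301b, were at least 2-fold higher in replicate 2, beside 12.1% of the 504 genes, and none was at least 2-fold lower, beside 5.36%. The other 2 lay within 1.5-fold, as did 62.9% of the 504 genes. The median log2 ratio was 0.97 over the family (0.98 with Mir301b at its bound) and 0.05 over all 504 genes. Since the contrast served to pick the family, nothing is read from these shares. The miR-130 genes together were 1.17 times higher (1.136 to 1.205), with 10766 counts in replicate 2 and 7587 in replicate 1. Without Mir301 the family sum was 2041 CPM in replicate 2 and 1723 CPM in replicate 1. The coefficient of variation between the libraries, which edgeR terms biological, was 0.425 in common over all tested genes. The differences of Mir130a and Mir130b lie within it. It was estimated from these same 2 libraries, large ratios included, so it does not judge these differences independently.

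**Figure D4:**
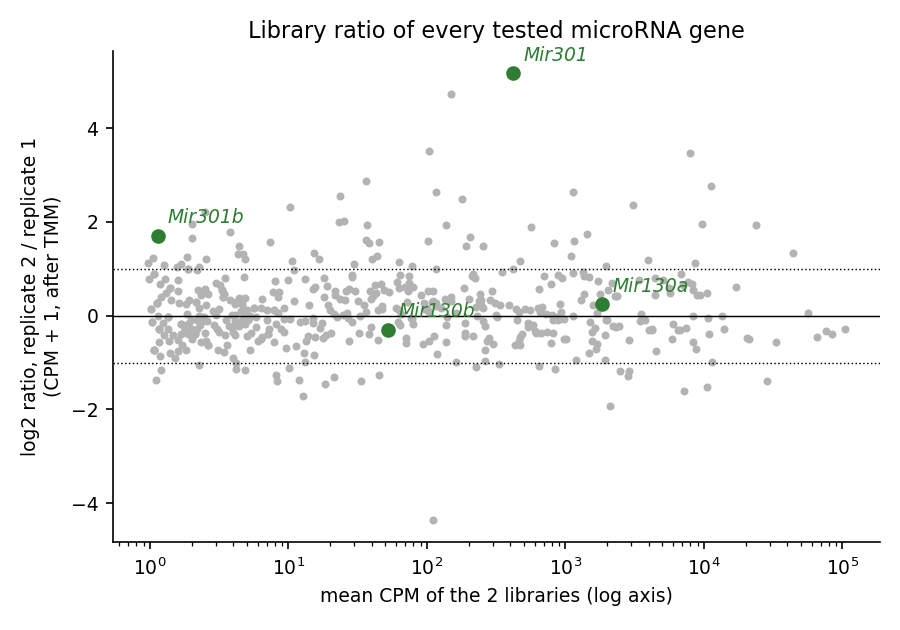
Log2 ratio of replicate 2 over replicate 1 (CPM + 1, after TMM) against mean CPM on a log axis, with 1 point per gene and the family genes in green. Dotted lines mark 2-fold, and Mir301 at 5.18 is the highest point while Mir130a (0.24) and Mir130b (-0.30) lie in the dense band around 0.

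The other genes found with the family seed gave no counts. RefSeq holds mature sequences with this seed for 4 further genes, shown because each could add to the same seed family.
miR-721: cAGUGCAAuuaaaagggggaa
miR-6341: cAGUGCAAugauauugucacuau
miR-6389: cAGUGCAAuguuaaacuuugc
miR-130c: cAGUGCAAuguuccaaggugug
All 4 genes are in the count files, and Mir721, Mir6341, Mir6389 and Mir130c had 0 counts in replicate 2 and in replicate 1. All counts of genes with this seed thus came from the 4 family genes, to within the limit that 0 counts allows. Opposite-strand reads were nearly absent as well, with 1 count at Mir130a in replicate 2 and none at the other family genes in either library.

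The miR-148 and miR-152 genes have seeds shifted by 1 base that share 6 bases with the family seed, given here in capitals.
miR-148a-3p: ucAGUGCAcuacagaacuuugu
miR-148b-3p: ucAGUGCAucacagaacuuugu
miR-152-3p: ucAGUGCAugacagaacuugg
Together these 3 genes stood at 262 CPM in replicate 2 and 111 CPM in replicate 1, below the family sum in both. Mir148a had a log2 ratio of 1.62 and Mir148b of 1.59, and Mir152 of 0.21, so 2 of 3 were at least 2-fold higher in replicate 2, beside 12.1% of the 504 genes.

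The levels of markers of cell types that the tissue can hold are given beside the ratio of Mir301, and the share of all 504 genes at least 2-fold higher in replicate 2 was 12.1%. The vessel wall markers summed to 43835 CPM in replicate 2 and 16250 CPM in replicate 1, and 1 of the 3 tested, the endothelial Mir126a, was at least 2-fold higher in replicate 2 (log2 ratio 1.95), while the smooth muscle gene Mir143 had -0.17. The choroid plexus and ciliated epithelium markers summed to 1417 CPM in replicate 2 and 777 CPM in replicate 1. At least 2-fold higher were 3 of 6. These were Mir200b (2.87, at 345 counts in replicate 2 and 35 in replicate 1), Mir429 (1.55) and Mir200a (1.21, at 38 and 11 counts). The other 3 were Mir204 (0.80), which held most of the sum in both libraries, Mir211 (0.33, at 9 and 5 counts) and Mir449a (0.28). The neuronal markers summed to 48768 CPM in replicate 2 and 41837 CPM in replicate 1. At least 2-fold higher were 2 of 8, Mir153 (1.68) and Mir128-1 (1.12). Mir132, the most abundant of the list, had -0.48, and Mir124a-1, at 8 counts in replicate 2 and 11 in replicate 1, had -0.49. Mir128-2 had 0.84, Mir137 0.72, Mir138-1 0.44 and Mir138-2 0.42. No marker of these 3 lists was at least 2-fold lower. Among the oligodendrocyte markers, at 5662 CPM in replicate 2 and 5819 CPM in replicate 1, none of 3 reached 2-fold. The microglia and leukocyte markers summed to 1856 CPM in replicate 2 and 1559 CPM in replicate 1. Only 1 of 5 was at least 2-fold higher (Mir223, 1.57, at 61 counts in replicate 2 and 14 in replicate 1). Mir142 had 0.61, Mir150 0.25, Mir146 0.19 and Mir155 -0.37. Those of red blood cells summed to 113 CPM in replicate 2 and 66.8 CPM in replicate 1. At least 2-fold higher was 1 of 3 (Mir144, 2.00), while Mir451a had 0.68 and Mir486 -0.36. Of the listed genes, Mir126b, Mir142b, Mir449b and Mir124a-3 had 0 counts in both libraries. Each of their lists had other genes with counts in both libraries, so these 0 counts do not show that a cell type was absent. The part of cell makeup in the ratio of Mir301 was not tested, and in bulk tissue fewer cells of a type and less RNA per cell cannot be told apart.

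**Figure D5:**
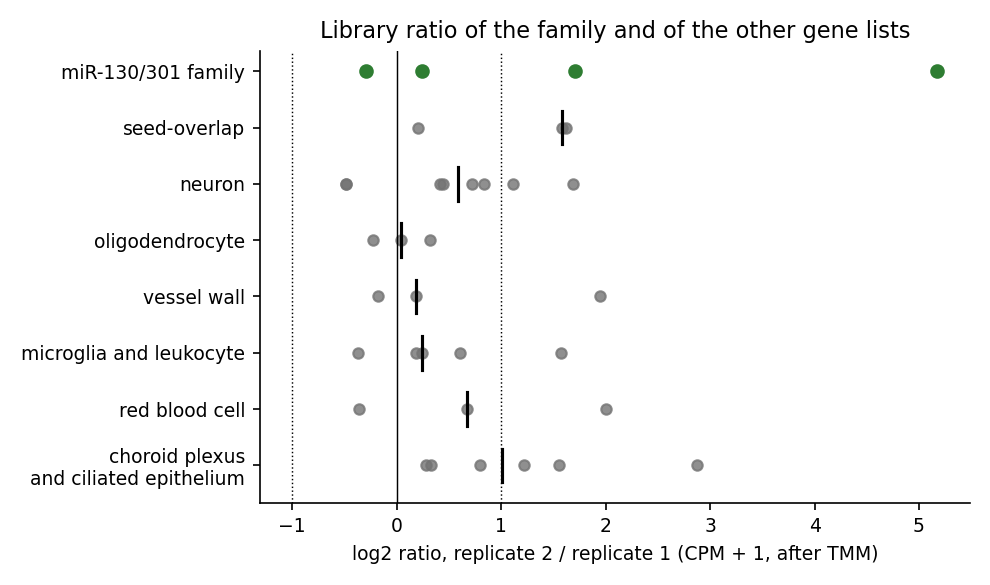
Log2 ratio of replicate 2 over replicate 1 (CPM + 1, after TMM) for the family (green, top row) and for each tested gene of the other lists (grey), with black ticks at list medians and dotted lines at 2-fold. Mir301 at 5.18, the ratio for which the family was picked, lies to the right of every gene of the other lists.

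The genes with the most similar levels were taken by Euclidean distance in log2(CPM + 1) over the 2 libraries, among the 313 genes with 100 or more counts in total. Mir130a was closest to Mir27b at a distance of 0.18 (2063 CPM in replicate 2 and 1475 in replicate 1), and to Mir708 at 0.19. Mir130b was closest to Mir203 at 0.05 (257 counts in replicate 2 and 253 in replicate 1) and to Mir7240 at 0.35. Mir301 had no close counterpart, the nearest being Mir1247 at 1.83 (288 CPM in replicate 2 and 9.76 in replicate 1) and Mir1298 at 1.90 (304 CPM in replicate 2 and 52.7 in replicate 1). The distances of Mir301 use the same 2 values whose ratio served to pick the family, so nothing is read from them. Mir301b, below the count minimum itself, was nearest to Mir544 at 3.16 and to Mir34b at 3.65. With 2 libraries such likeness is a matter of 2 values per gene.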

How the data were processed

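The deposited files hold raw counts per microRNA gene, mapped to mm10 and annotated with GENCODE M21, per the notes that the authors deposited with them. For the aligner, a name is not given in the sources used here. What each count column holds (either strand, own strand, opposite strand) was read from its values. Own-strand counts were used, and the rows that name no gene (65.4% of the reads of replicate 2 and 64.7% of replicate 1) stayed out of library totals. All 2202 identifiers matched the annotation.

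CPM, TMM scaling (edgeR 4.0.16, R 4.3.3), log2 ratios with 1 CPM added, and exact Clopper-Pearson and conditional binomial intervals (scipy 1.17.1) were computed from the counts. edgeR's quasi-likelihood test has no contrast with 1 group. Sequences are from RefSeq, with hairpins folded by RNAfold 2.7.2. The ratio step was checked on simulated counts with counting error only, so the check does not cover the spread between libraries. DESeq2 1.42.0 size factors, other totals, minimums, pseudocounts and columns were alternatives. The naming rule takes family members, genes of the same seed, list counts with list genes, and the 2 nearest genes of each member. The family, the lists and this rule were chosen with earlier results of these data known. A further list of microRNA genes is not reported here.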

Additional observations from a re-analysis of the deposited data

How the results depend on the processing

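None of the 24 recomputed log2 ratios of the members changed sign. For Mir301b, with 0 counts in replicate 1, no alternative could change the sign. Mir301, at a log2 ratio of 5.18, left little room for a change. The total of all reads of the library includes reads outside genes. With it, Mir301 averaged 145 CPM, Mir130a 639 CPM, Mir130b 18.2 CPM and the 4 genes together 803 CPM. On the same total Mir301b averaged 0.394 CPM, and its log2 ratio was 0.84 with 1 CPM still added. The log2 ratio of Mir301b was 0.54 with 5 CPM added. That of Mir130a was 0.19 with DESeq2 size factors and 0.30 with either-strand counts, and that of Mir301 lay between 4.95 and 5.24 in all 6 alternatives. With a minimum of 100 counts 39 genes were at least 2-fold higher in replicate 2, which is 12.5% of 313 genes, and 61 with the minimum of 10, which is 12.1% of 504.

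With 1 library left out, the ratio of Mir301b to Mir130b ranged over 0 to 0.0484 and the Mir301 level over 21.3 to 817 CPM, which in replicate 1 alone puts Mir301 below Mir130b at 57.2 CPM. No length-scaled level was run for Mir301b, which has no 3p entry. No paired analysis was possible because the series has 1 group. Depth limits Mir301b, at 12 counts in all.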
